A study of Sus scrofa with 6 samples.

Results

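These results cover 5 microRNA (miRNA) hairpins of pig skin, miR-193a, miR-708, miR-455, miR-769 and miR-361, whose 3p and 5p arms were both listed by name, which makes 10 of the 898 miRNAs in the table. The hairpins were chosen by the difference between white and black skin in the log2 of 3p over 5p reads. Every difference between the colours given for them is therefore a description. Where a fit over all hairpins or miRNAs called a member, nothing is read from the call. Small RNA was sequenced from skin of Xiang pigs, a small Chinese breed, in 3 libraries of white skin (S02, S06 and S07) and 3 of black skin (S03, S04 and S05). All samples were skin kept in the same preservative, and age, sex, body site and the animal behind each library are not stated in the labels. The spread between libraries may therefore be technical. Values are RPM, that is reads scaled so that the listed miRNAs of a library add up to 1000000.

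A miRNA hairpin is cut by Drosha and Dicer into a short duplex whose strands are the 5p and the 3p arm. An Argonaute protein usually keeps one arm and the other is degraded, so one arm of most hairpins prevails. The arms have different seeds, the bases near the 5′ end that pair with target mRNAs, so they address different targets. Because both arms come from the same transcript, a change in transcription alone moves both and leaves their ratio as it was. The ratio also does not depend on how a library is scaled, since both arms are divided by the same total. It is a ratio of reads, and in whole skin a change within cells and a change in the mix of cells cannot be told apart.

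All 10 members passed the filter on low counts, and 41 of the 55 hairpins with both arms listed were tested. In all 5 hairpins the ratios of the white and black libraries did not overlap, as in 36.6% of the tested hairpins. That share counts miR-199a and miR-199b separately, both without overlap, although their 3p arms held identical values. At an adjusted p under 0.05 (limma over all 41 hairpins), 2 of the 5 were called, miR-193a and miR-455, and 3 were not, against 9.76% called among all. The rule used this contrast, so nothing is read from either count. In size the differences ranked 1 (miR-193a), 2 (miR-455), 6 (miR-769), 11 (miR-708) and 14 (miR-361) of 41.

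**Figure D1:**
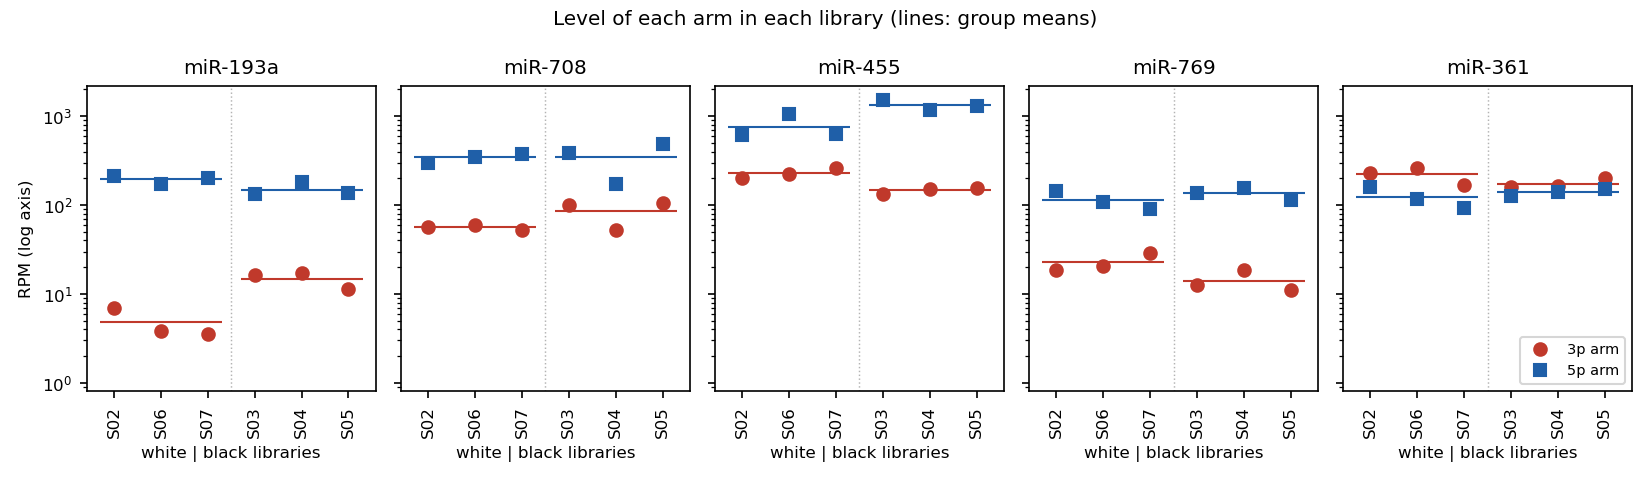
Level of the 3p arm (red circles) and the 5p arm (blue squares) of each hairpin in RPM on a log axis, by library, with lines at the group means. The arms lie far apart in miR-193a, where the 3p arm was below 18 RPM in every library, and close together in miR-361.

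In 4 of the 5 hairpins the 5p arm prevailed over both skin colours, and in miR-361 the 3p arm did. This comparison averages the colours and is independent of the contrast that chose the members. The mean log2 ratio of 3p to 5p was -4.38 for miR-193a (standard error 0.16), which is 20.8 times more 5p than 3p (limma over 41 hairpins, adjusted p = 2.19e-10). It was -2.81 for miR-769 (standard error 0.17, adjusted p = 1.39e-08) and -2.44 for miR-455 (standard error 0.15, adjusted p = 1.91e-08). For miR-708 it was -2.28 (standard error 0.12, adjusted p = 5.78e-09). For miR-361 it was 0.59 (standard error 0.11, adjusted p = 0.000311), or 1.50 times more 3p than 5p, and the 3p arm was the higher one in 6 of 6 libraries. An unequal pair was the common state, called in 38 of 41 hairpins (92.7%), with 5p ahead in 23 and 3p in 15. The size of the mean ratio had a median of 2.87 over all tested hairpins and of 2.44 over the 5 members.

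Among the 41 tested hairpins the members were of middle to low abundance. Summed over both arms, miR-455 averaged 1240 RPM and ranked 14 of the 41 hairpins, miR-708 averaged 415 RPM, miR-361 330 RPM, miR-193a 182 RPM and miR-769 144 RPM. The median of the 41 was 848 RPM. The scarcest arm was ssc-miR-193a-3p, with 25 to 126 reads per library, followed by ssc-miR-769-3p with 96 to 292. The other 8 arms had at least 383 reads in every library.

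miR-193a had the largest difference of all tested hairpins, and it lay mostly in its scarce 3p arm. ssc-miR-193a-3p is known to repress the receptor kinase KIT in leukaemia cells. It stood at 6.99 (S02), 3.87 (S06) and 3.54 RPM (S07) in white skin and at 16.1 (S03), 17.2 (S04) and 11.2 RPM (S05) in black skin. The groups did not overlap, and the mean was 3.09-fold higher in black skin (14.8 ± 3.19 against 4.80 ± 1.90 RPM, SD, n = 3 each). The prevailing ssc-miR-193a-5p went the other way, with 213, 171 and 203 RPM in the same white libraries and 132, 180 and 136 RPM in the same black ones. Here the groups overlapped, since S04 lay above S06, and the means were 196 ± 21.8 and 149 ± 26.9 RPM (SD, n = 3).

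The log2 ratio of miR-193a was -4.93, -5.47 and -5.84 in S02, S06 and S07 and -3.03, -3.39 and -3.60 in S03, S04 and S05. Every black library lay above every white one, with a gap of 1.33 between the groups. The means differed by 2.07 on the log2 scale (-3.34 ± 0.29 against -5.41 ± 0.46, SD, n = 3), a 4.21-fold change of the ratio. As a share of the reads of the hairpin, the 3p arm made up 1.72% to 3.18% in white and 7.63% to 10.9% in black skin. At the depth of these libraries the extremes that lay closest were S02, at 3.18% (95% exact binomial interval 2.37 to 4.16%), and S05, at 7.63% (6.23 to 9.23%). Of the 9 pairings of a white with a black library, the intervals were separate in 9. Such intervals cover counting error only. In some of the 5 hairpins libraries of the same colour were separate too, so nothing about colour is read from these counts.

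**Figure D2:**
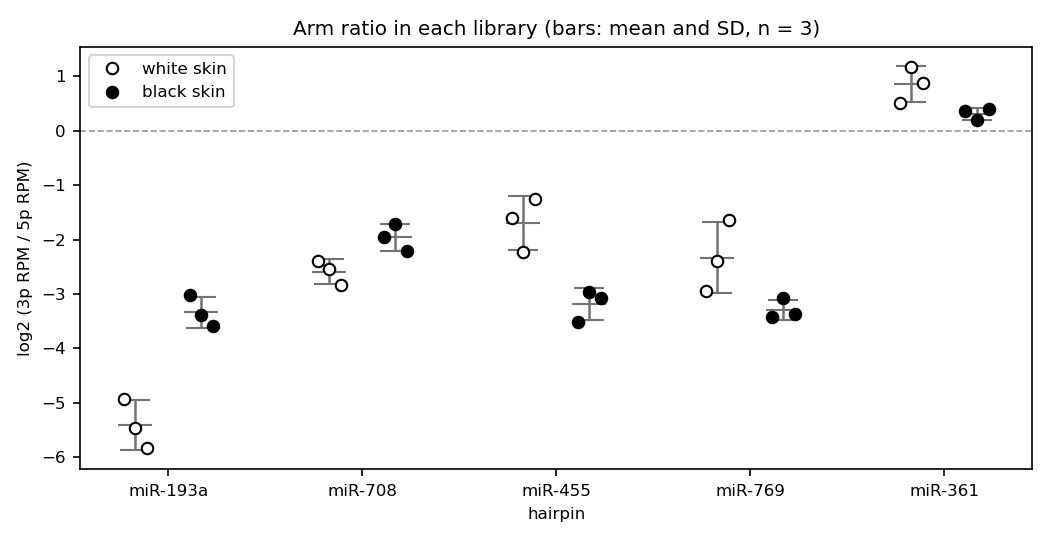
Log2 ratio of 3p to 5p RPM by hairpin, in white (open circles) and black (filled circles) libraries, with the mean and SD of each group (n = 3). The groups are separate in every hairpin, by 1.33 in miR-193a and by 0.12 in miR-361, and black lies above white in miR-193a and miR-708 and below it in the others.

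In miR-708 the ratio of 3p to 5p was also higher in black skin, while the amount of the hairpin varied widely between black libraries. miR-708 has been studied as a suppressor of tumour cell migration. ssc-miR-708-3p stood at 57.3 (S02), 59.6 (S06) and 52.7 RPM (S07) in white skin and at 98.9 (S03), 52.2 (S04) and 104 RPM (S05) in black skin. ssc-miR-708-5p stood at 301, 349 and 379 RPM in the same white libraries and at 381, 171 and 483 RPM in the same black ones. The groups overlapped in both arms, because S04 had the lowest value of all 6 libraries in each.

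The 5p arm of miR-708 thus differed 2.82-fold between the highest and lowest black library, and the 3p arm 1.99-fold. The log2 ratio differed less, at -2.39, -2.55 and -2.84 in the white libraries and -1.95, -1.71 and -2.21 in the black ones. S04, lowest in both arms, had the highest ratio. The means were -2.60 ± 0.23 and -1.96 ± 0.25 (SD, n = 3), a difference of 0.64, with a gap of 0.18 between the groups. The 3p share averaged 14.3 ± 1.91% for white against 20.6 ± 2.82% for black skin (SD, n = 3). The intervals were separate in 8 of 9 pairings of a white with a black library, and those of S02 (14.6 to 17.5%) and S05 (16.7 to 18.8%) overlapped. The summed level of the hairpin was 399 ± 37.5 RPM for white against 430 ± 187 RPM for black skin (SD, n = 3).

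In miR-455 both arms differed between the colours without overlap, in opposite directions. The hairpin lies in COL27A1, a fibrillar collagen gene, and is known from cartilage. ssc-miR-455-5p, its abundant arm, stood at 615 (S02), 1050 (S06) and 630 RPM (S07) in white skin and at 1526 (S03), 1188 (S04) and 1301 RPM (S05) in black skin. It was 1.75-fold higher in black skin (1338 ± 172 against 765 ± 247 RPM, SD, n = 3). ssc-miR-455-3p stood at 202, 224 and 264 RPM in the same white libraries and at 133, 152 and 154 RPM in the same black ones. It was 1.57-fold lower in black skin (146 ± 11.7 against 230 ± 31.0 RPM, SD, n = 3).

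The log2 ratio of miR-455 was -1.60, -2.23 and -1.26 in the white and -3.52, -2.97 and -3.08 in the black libraries. The means differed by -1.49 on the log2 scale (-3.19 ± 0.29 against -1.70 ± 0.49, SD, n = 3), and the groups were separated by 0.74. The 3p share was 17.6% to 29.5% in white and 8.01% to 11.3% in black skin, and the counting intervals were separate in 9 of 9 pairings. Those of the white libraries were also separate from each other, at 23.7 to 25.9% (S02), 16.8 to 18.4% (S06) and 28.6 to 30.5% (S07). Among the black libraries S03 was separate from S04 and S05. miR-455 was also the 1 hairpin of the 5 whose summed level did not overlap, against 18 of the 41 tested hairpins. This level was 995 ± 245 RPM for white against 1484 ± 161 RPM for black skin (SD, n = 3).

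In miR-769 the 3p arm was again the lower one in black skin, and the white libraries were spread out. ssc-miR-769-3p stood at 18.8 (S02), 20.8 (S06) and 28.7 RPM (S07) in white skin and at 12.7 (S03), 18.5 (S04) and 11.1 RPM (S05) in black skin. The groups were separate by a small margin, between S02 and S04. ssc-miR-769-5p stood at 145, 109 and 89.9 RPM in the same white libraries and at 136, 157 and 115 RPM in the same black ones, with overlap.

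The log2 ratio of miR-769 was -2.95, -2.39 and -1.65 in white and -3.43, -3.08 and -3.38 in black libraries. Its SD in white skin, 0.66, was the largest of the 5 hairpins, against 0.19 in black skin (n = 3 each). The difference of the means was -0.96, and -0.62 without S07, the library farthest from the black ones. The 3p share was 11.4% to 24.2% in white and 8.51% to 10.6% in black skin. Counting intervals were separate in 6 of 9 pairings, and the interval of S02 (9.68 to 13.4%) overlapped those of all 3 black libraries. The intervals of the white libraries were separate from each other, with S06 at 13.6 to 18.7% and S07 at 21.8 to 26.7%.

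miR-361 was the 1 hairpin with its arms near balance, and they were closer to balance in black skin. miR-361-5p is known to repress the growth factor gene VEGFA. ssc-miR-361-3p stood at 231 (S02), 263 (S06) and 170 RPM (S07) in white skin and at 161 (S03), 162 (S04) and 201 RPM (S05) in black skin. ssc-miR-361-5p stood at 162, 116 and 92.4 RPM in the same white libraries and at 126, 142 and 153 RPM in the same black ones. Each arm overlapped between the groups.

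The log2 ratio of miR-361 did not overlap, at 0.51, 1.18 and 0.88 in white and 0.36, 0.19 and 0.40 in black libraries. The gap of 0.12 was the smallest of the 5 hairpins and the difference of the means was -0.54 (0.32 ± 0.11 against 0.86 ± 0.33, SD, n = 3). The 3p arm held 64.3 ± 5.27% of the reads of the hairpin for white against 55.5 ± 1.89% for black skin (SD, n = 3). Counting intervals were separate in 7 of 9 pairings. Those of S02 (57.0 to 60.6%) overlapped the intervals of S03 and S05. The intervals of the white libraries were separate from each other too, with S06 at 67.5 to 71.2% and S07 at 63.0 to 66.6%.

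Set side by side, the 5 hairpins differed in no common direction. The ratio was higher in black skin in 2 (miR-193a and miR-708) and lower in 3 (miR-455, miR-769 and miR-361), and over the 41 tested hairpins it was higher in 18 and lower in 23. Within each of the 5 the arms differed in opposite directions between the colours, against 34.1% of all tested hairpins, a feature that the choice by ratio favours. The 3p arm had the larger difference on the log2 scale in 4 of the 5, and in miR-455 the 5p arm did (0.85 against -0.65). Among single arms 1 of the 10 was called, ssc-miR-193a-3p (limma on log2(RPM + 1) over 454 miRNAs), against 7.05% of all tested. With 1 library left out it was called in 1 of 6 fits, the one without S02. The groups did not overlap in 4 of the 10 arms, against 27.3% of all tested. These are the same contrast as the rule and are given as a description. The white library S02 had the ratio nearest to black skin in 4 of the 5 hairpins, and in miR-455 S06 did.

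**Figure D3:**
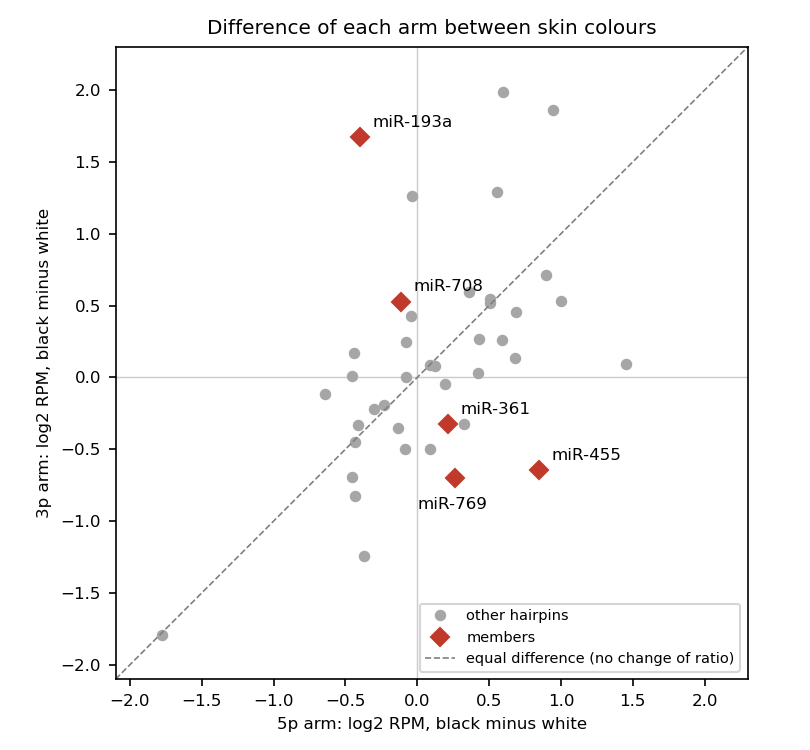
Difference between black and white skin in mean log2 RPM of the 5p arm (horizontal) and the 3p arm (vertical) for the 41 tested hairpins, with the members as red diamonds. On the dashed line the arms differ equally and the ratio is the same in both colours, and the members lie off it, with miR-193a at -0.40 (5p) and 1.67 (3p) and miR-455 at 0.85 (5p) and -0.65 (3p).

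**Figure D4:**
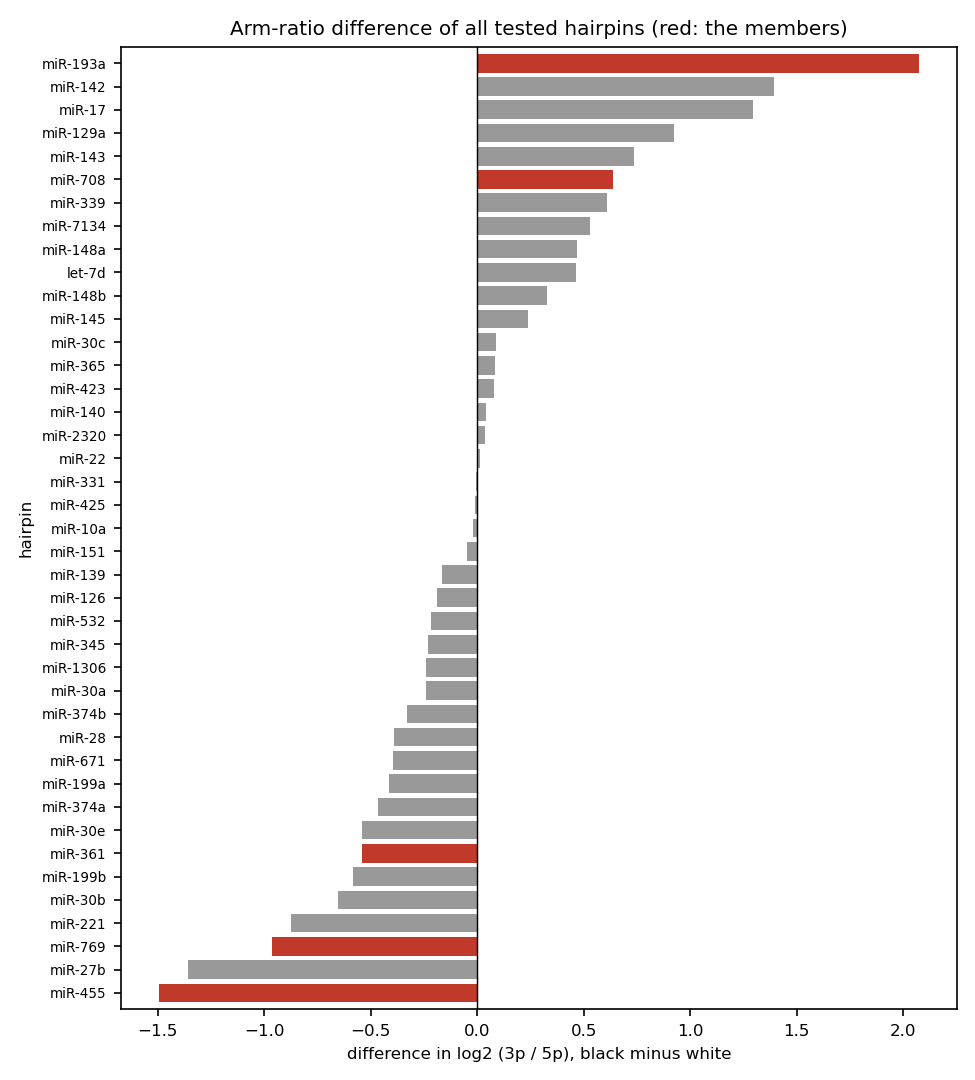
Difference between black and white skin in the mean log2 ratio of 3p to 5p for each of the 41 tested hairpins, with the members in red. miR-193a has the highest value, 2.07, and miR-455 the lowest, -1.49, and the other members lie among hairpins that were not chosen.

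The size of the difference had a median of 0.96 over the 5 members and of 0.40 over all 41 hairpins, again by choice. The pooled SD of the ratio within a colour had a median of 0.38 over the members against 0.35 over all 41. Likeness to other hairpins was measured as the root mean square distance between ratio profiles over the 6 libraries, each centred on its own mean. The nearest outside the group was miR-142 for miR-193a (distance 0.55), miR-143 for miR-708 (0.25), miR-221 for both miR-455 (0.57) and miR-769 (0.34), and miR-374a for miR-361 (0.18). The median distance of the hairpins outside the group ran from 0.46 for miR-361 to 1.15 for miR-193a.

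The 5 precursors lie on 5 chromosomes of Sscrofa11.1, by the RefSeq gene table, which held all 5. MIR193A is on chromosome 12 at 43336969 to 43337048, in no annotated gene and 12165 bases from MIR365-2. MIR769 is on chromosome 6 at 52318329 to 52318408, between genes, 323 bases from CCDC61 and 136 from PGLYRP1. The other 3 lie inside the span of protein-coding genes. MIR455 is on chromosome 1 at 254824200 to 254824279 in COL27A1 and MIR708 on chromosome 9 at 13780171 to 13780250 in TENM4, a teneurin gene. MIR361 is on chromosome X at 68924500 to 68924579 in CHM, the gene mutated in choroideremia. The table gives neither exons nor strand, and mature sequences were not used here.

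Relatives were listed for 2 of the 5 hairpins. They were miR-365 for miR-193a, from a precursor next to MIR193A and another on chromosome 3, and miR-28 and miR-151 for miR-708. miR-193b was sought by name but was not among the listed miRNAs. Relatives of miR-455, miR-769 and miR-361 were not analysed here. miR-28-5p and miR-708-5p are known to share a seed. Of 6 listed arms 0 were called in limma over all 454 miRNAs (7.05% of which were), with 1 at an unadjusted p under 0.05, and edgeR and DESeq2 on the recovered reads each called 0. Their median difference was 0.05, against 0.00 over all tested. ssc-miR-28-5p stood at 226 (S02), 215 (S06) and 229 RPM (S07) in white skin and at 313 (S03), 294 (S04) and 289 RPM (S05) in black skin. The groups did not overlap, but the difference of 0.42 did not pass (standard error 0.18, limma, adjusted p = 0.176). ssc-miR-365-3p, whose precursor neighbours that of miR-193a, averaged 124 ± 41.4 RPM for white against 107 ± 38.0 RPM for black skin (SD, n = 3), with a difference of -0.22 (standard error 0.35, limma, adjusted p = 0.760). The log2 ratio of 3p to 5p of miR-28 was 2.06 ± 0.22 for white against 1.67 ± 0.11 for black skin (SD, n = 3), and the groups did not overlap. This difference, -0.39, opposite in sign to that of miR-708, did not pass (standard error 0.19, limma over 41 hairpins, adjusted p = 0.184). The ratio of miR-365 differed by 0.08 and that of miR-151 by -0.05, and the groups overlapped in both.

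Skin markers were present in all libraries. ssc-miR-205, made by keratinocytes, measured 11483 to 22514 RPM, and 2 of the 7 names of the keratinocyte and epithelial list were matched, summing to between 15361 and 23062 RPM (white) and between 11808 and 16941 RPM (black). The 6 smooth muscle and vessel rows summed to between 44365 and 58091 RPM (white) and between 96227 and 119952 RPM (black), and 3 of the 6 rose (limma): ssc-miR-143-3p, called also without each library in turn, and both arms of miR-126, each called in 1 of these 6 fits. edgeR called 1 of the 6, ssc-miR-143-3p, and DESeq2 and limma with TMM or RLE factors called 2, losing ssc-miR-126-3p. ssc-miR-204, the 1 matched name of 2 melanocyte markers, ranged from 57.7 to 71.1 RPM (white) and from 88.5 to 135 RPM (black) and missed the threshold in limma (adjusted p = 0.0804) and passed it in DESeq2. Of 7 blood and leukocyte rows 1 rose, ssc-miR-142-3p (called in 3 of 6 fits with 1 library left out), and their sum overlapped, at 2313 to 6234 RPM (white) and 2172 to 5868 RPM (black). The red cell miRNAs of this list differed in both directions, and limma called none of them. The difference was -1.68 for ssc-miR-486 (limma, adjusted p = 0.0743), which DESeq2 called lower, and -0.87 for ssc-miR-451 (adjusted p = 0.368). It was 1.24 for the scarce ssc-miR-144 (limma, adjusted p = 0.284), at 0.77 to 6.49 RPM (white) and 3.55 to 21.2 RPM (black). Of 7 mesenchymal and fibroblast rows, which share both arms of miR-145 with the smooth muscle list and of which the 3p arms of miR-199a and miR-199b held identical values, 1 fell, ssc-miR-214, called in 1 of these 6 fits (summed level 32016 to 46425 RPM for white and 27635 to 36531 RPM for black). Of 4 tested striated muscle rows limma called 0, with 1 at an unadjusted p under 0.05, while edgeR and DESeq2 each called 1, ssc-miR-206, lower in black skin. Its white libraries held 12.6 (S02), 106 (S06) and 115 RPM (S07). Its black libraries held 14.6 (S03), 4.77 (S04) and 8.21 RPM (S05), so the groups overlapped. The 5 striated muscle rows summed to between 460 and 1877 RPM (white) and between 722 and 1386 RPM (black). The part of these markers in the arm ratios was not tested.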

How the data were processed

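The authors deposited 1 table with 1 column of RPM per library; this unit was inferred, as every column adds up to 1000000. The submitters' processing notes name Bowtie, without a version, and Sscrofa11.1, with no role. How reads were counted, the miRNA release and any filter are not stated there. Divided by the worth of 1 read, 100% of the values were whole in each library (tolerance 0.001), so reads were recovered, 6454685 to 10165949 per library; 1 read is worth 0.0984 to 0.155 RPM. No library duplicated another (smallest chi-square per degree of freedom 249), and 0 members equalled another row.

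Arm ratios are log2(3p RPM / 5p RPM) with no pseudocount, for hairpins whose arms both passed edgeR's filterByExpr (minimum count 10, total 15) and were above 0 in all 6 libraries. limma 3.58.1 (R 4.3.3) fitted them by colour, with its variance trend on the mean log2 ratio of each hairpin and not on abundance. The fit gave the mean of both colours against 0 and black minus white. Single miRNAs were fitted with limma on log2(RPM + 1). All p-values were adjusted by Benjamini-Hochberg (two-sided, threshold 0.05). The adjustment ran over all features of a fit, except in DESeq2. Its default settings can first set aside features with low mean counts or outlying counts. On recovered reads, edgeR 4.0.16 (quasi-likelihood) called 30 miRNAs and 5 arm ratios, and DESeq2 1.42.0 52 miRNAs. Library codes are not shared between colours, so no block was fitted. The limma fits of black minus white, for arm ratios and for single miRNAs, were run on simulated data. There the arms of a hairpin were drawn independently, with changes larger than the difference of every member but miR-193a. The outcome is not given here and nothing is read from it. Members and lists were chosen with earlier results of these data known. Named besides the members are the hairpins nearest in profile, the 2 on either side of the threshold with the smallest adjusted p, and a list of relatives. All 6 value columns were used.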

Additional observations from a re-analysis of the deposited data

How the results depend on the processing

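The direction of each member's ratio difference and mean ratio held under every alternative run. Leaving out 1 library could not reverse either, since the groups did not overlap and each hairpin's ratio had the same sign in every library. Changing the filter or the limma trend leaves these values as they are by construction. Only the pseudocounts, edgeR and leaving out 1 library could move them. Over 69 alternative values, those fixed ones included, the ratio differences moved by less than the pooled SD in 68. The exception was miR-193a with a pseudocount of 10 RPM, which gave 1.12, as its 3p arm lies at that level; this arm also left miR-193a out when both arms had to average 10 RPM. All 64 alternative mean ratios stayed past the threshold. The count of called arm ratios, 4 with all libraries, was 10 of 29 hairpins under that stricter filter (fewer hairpins tested), with 4 of the 5 members called. It was 3 to 6 with no filter, a pseudocount of 1 RPM, edgeR, and limma without a trend or with a trend on abundance, the 2 limma variants chosen after seeing the data. Leaving out 1 library gave 2 to 7, lowest without S07, where miR-455 lost its call, and highest without S02, where miR-361 and miR-769 gained one. The cause was not tested. Calls of members in these runs rest on the contrast that chose them and are given as a description only. The count of called single miRNAs, 32, was 52 with DESeq2 (33 higher and 19 lower) and 7 to 41 on leaving out 1 library (9 without S03, 18 without S04, 7 without S05, 41 without S02, 7 without S06 and 14 without S07). edgeR called 13 higher and 17 lower, against 18 and 14 in limma. Depth limits ssc-miR-193a-3p (25 reads at least) and ssc-miR-769-3p (96) most.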

Other observations

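Outside the 5 hairpins, 2 others had called arm ratios. miR-142, of blood cells, had a log2 ratio of 3p to 5p of -3.30 ± 0.28 for white against -1.91 ± 0.32 for black skin (SD, n = 3; difference 1.39, standard error 0.27, limma over 41 hairpins, adjusted p = 0.00719), and its arms differed in the same direction, by 1.99 (3p) and 0.60 (5p) on the log2 scale. miR-221 had 2.56 ± 0.35 for white against 1.69 ± 0.16 for black skin (SD, n = 3; difference -0.88, standard error 0.22, limma, adjusted p = 0.0283), again with both arms in the same direction (-1.25 and -0.37). With 1 library left out miR-142 was called in 6 of 6 fits and miR-221 in 3, not without S05, S06 or S07 (adjusted p up to 0.180); miR-221 was also not called with no filter or without a trend (up to 0.0658). miR-27b, just behind miR-142 in size at -1.36, was not called (standard error 0.42, limma, adjusted p = 0.0694). It was called in 4 of 8 other fits (edgeR, a pseudocount of 1 RPM, a trend on abundance, and both arms averaging at least 10 RPM) and in 2 of 6 with 1 library left out, those without S02 or S04. Its difference lay in the scarce 5p arm, which differed by 1.45 while the abundant 3p arm differed by 0.10. miR-143, whose 3p arm is enriched in smooth muscle, differed by 0.73 (standard error 0.26, limma, adjusted p = 0.0961). In all 4 the ratios of the groups did not overlap.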
